A study of Mus musculus with 12 samples.

Results

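The genes described here encode 10 enzymes that remove superoxide or hydrogen peroxide in mouse tissue: *Sod1*, *Prdx1*, *Prdx2* and *Gpx1* in the cytosol, *Sod2* and *Prdx3* in the mitochondrial matrix, *Cat* in peroxisomes, *Prdx4* in the endoplasmic reticulum and secretory pathway, and *Sod3* and *Gpx3* outside the cell. They were chosen by name, each by its brightest probe set among those that carry a single gene symbol, and make up 10 of the 19938 genes measured. Expression had been measured in diaphragm and gastrocnemius muscle of mice lacking *Cox6a2*, which encodes a striated muscle subunit of cytochrome c oxidase, and of WT mice. Each of the 4 groups of genotype and muscle held 3 Affymetrix mouse Gene 1.0 ST arrays, 12 in all. All mice were males of 10 to 12 weeks with C57Bl6 as the strain label. The deletion is constitutive, so that every tissue of the KO mice carries it, and the WT mice were animals bought from a supplier, matched for age and sex according to the methods.

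Respiring mitochondria leak single electrons onto oxygen, which yields superoxide. Superoxide dismutases turn superoxide into hydrogen peroxide, and each compartment has its own: a copper and zinc enzyme in the cytosol (*Sod1*), a manganese enzyme in the matrix (*Sod2*) and a copper and zinc enzyme in the extracellular matrix (*Sod3*). Catalase splits hydrogen peroxide without a partner, whereas peroxiredoxins draw electrons from thioredoxin and glutathione peroxidases from glutathione, and both routes lead back to NADPH. Skeletal muscle fibers rich in mitochondria are known to hold more of several of these enzymes than glycolytic fibers do.

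Values are log2 RMA signals, so that a difference of 1 is a doubling, and signals of different genes are not set against each other. A gene is said to have risen or fallen where its Benjamini-Hochberg adjusted p over all 19938 genes was under 0.05 in limma. *Cox6a2* itself averaged 11.89 and 11.74 in WT diaphragm and WT gastrocnemius arrays and 6.89 and 6.93 in the KO arrays of the same muscles, so that both KO groups carried the low values. *Hoxc10*, a hindlimb position gene, averaged 8.68 ± 0.0641 (SD, n = 3) in the arrays labelled WT diaphragm, 8.44 and 8.53 in WT and KO gastrocnemius and 4.18 in KO diaphragm. The mesothelial gene *Upk3b*, typical of the cells lining the diaphragm surface, averaged 9.31 in KO diaphragm, and its means elsewhere ran from 5.16 to 5.49. *Myh4*, the myosin of fast glycolytic fibers, averaged 13.56, 13.64 and 13.64 in the arrays labelled WT diaphragm and in WT and KO gastrocnemius, and 8.96 in KO diaphragm. Among the marker lists, 8 of 8 mesothelial genes were higher and 8 of 10 hindlimb genes lower in KO diaphragm than in the arrays labelled WT diaphragm. The 3 arrays labelled WT diaphragm thus do not carry the position and surface markers of their label, and in a comparison with KO diaphragm the genotype and the muscle cannot be told apart. Differences are therefore given for the diaphragm label, for gastrocnemius alone and for KO diaphragm against KO gastrocnemius, and the last pair of comparisons use these 3 arrays only in the shared estimate of spread. A fit without them called 0 and 6 of the 10 enzymes in those comparisons, as did the fit with them.

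**Figure D1:**
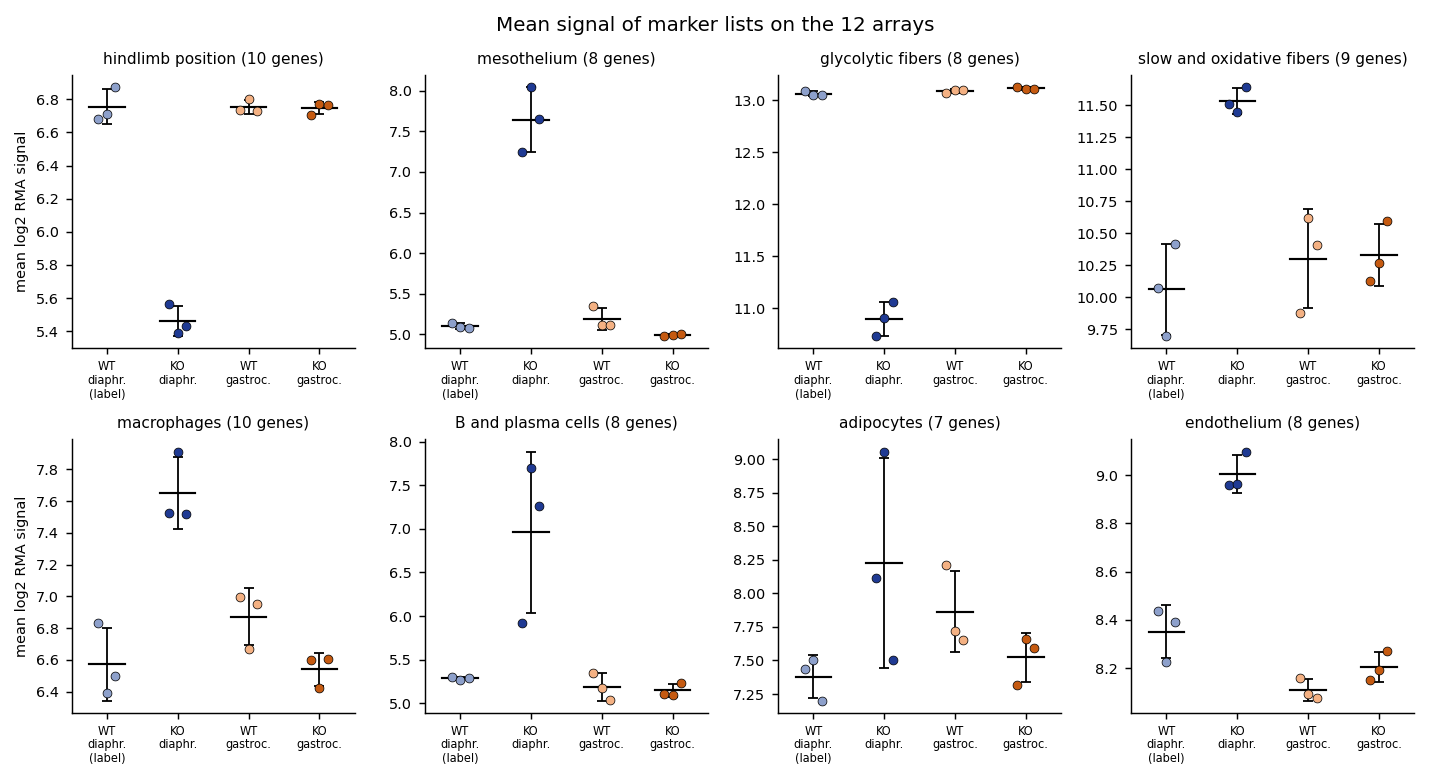
Mean log2 RMA signal of 8 marker lists on each of the 12 arrays (points), with the mean and SD of each group (bars). KO diaphragm is separate from the other 9 arrays for hindlimb, mesothelial, fiber type, macrophage and endothelial genes, whereas the arrays labelled WT diaphragm lie near the gastrocnemius arrays in the hindlimb, mesothelial and glycolytic lists.

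Between KO diaphragm and the arrays labelled WT diaphragm, 6 of the 10 enzymes rose and none fell: *Prdx2*, *Gpx1*, *Sod2*, *Prdx3*, *Cat* and *Prdx4*, by 0.48 to 1.02 on the log2 scale. All 10 differences were above 0, with a median of 0.51 against -0.04 over all genes. In the same comparison 16.3% of all genes were called higher and 11.2% lower. In gastrocnemius none of the 10 was called in either direction, against 0.406% of all genes higher and 0.186% lower, and the differences ran from -0.32 for *Cat* to 0.27 for *Prdx3* with a median of 0.05. At an unadjusted p under 0.05 limma counted 1 enzyme higher (*Prdx3*) and 1 lower (*Cat*) there. The unpaired test named in the methods counted 2 of the 10 at that threshold, and 2708 of all 19938 genes. The count of enzymes is thus near the share of all genes. KO diaphragm exceeded KO gastrocnemius in 6 of the 10, namely *Prdx2*, *Cat*, *Sod2*, *Prdx4*, *Sod3* and *Gpx1*, with 17.7% of all genes called higher and 11.2% lower. The KO minus WT change differed between the muscle labels in 6 (*Cat*, *Prdx2*, *Prdx4*, *Gpx1*, *Sod2* and *Sod3*), each with the higher change for the diaphragm label, and 8.76% of all genes were called higher and 6.07% lower by that test. These comparisons share their KO diaphragm arrays. The arrays labelled WT diaphragm and WT gastrocnemius differed in none of the 10, with 0.296% of all genes called higher and 0.166% lower. In limma only *Gpx1* had an unadjusted p under 0.05 between these WT labels. The unpaired test counted 1 of the 10 there, and 1930 of all 19938 genes.

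The antioxidant enzymes are a group that the study itself had picked out on these arrays, so that their direction is not independent evidence. Centring each array on its median moved the call split over all genes from 3258 higher and 2238 lower to 2667 and 3836 for the diaphragm label, and quantile normalization moved it to 2812 and 2863. For gastrocnemius, centring moved 81 higher and 37 lower to 188 and 29. For KO diaphragm against KO gastrocnemius, 3535 higher and 2232 lower became 2389 and 4323 with centring and 2798 and 2828 with quantile normalization. For the difference between the changes, 1747 and 1211 became 1225 and 2291 with centring, which lowered the median gene by 0.132 there and by 0.127 between the KO muscles. For the WT labels, 59 and 33 became 40 and 40 with quantile normalization.

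**Figure D2:**
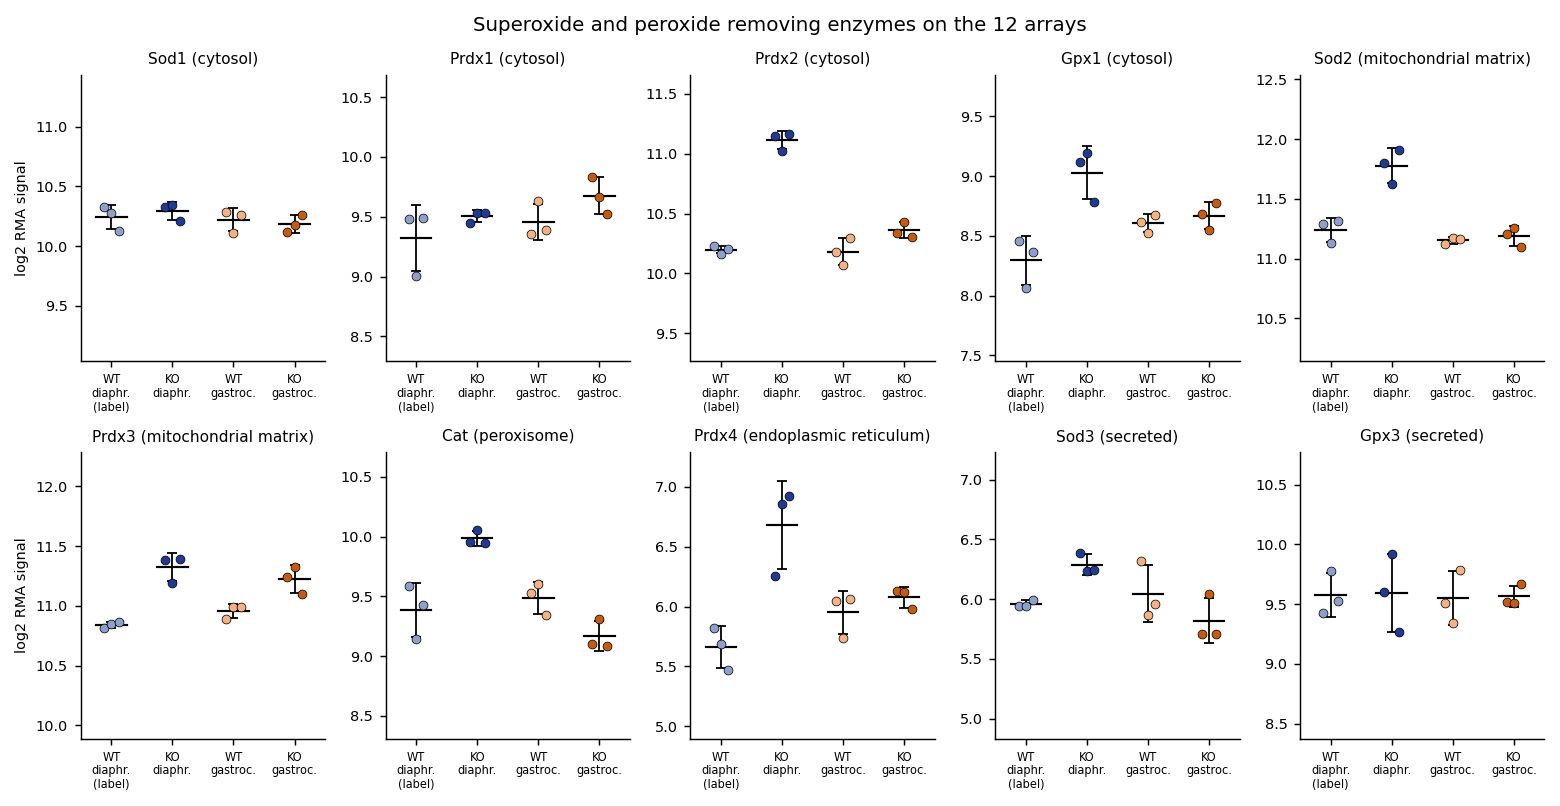
Log2 RMA signal of each enzyme on each of the 12 arrays (points), with group mean and SD (bars, n = 3), over windows of equal height on the log2 axis. KO diaphragm lies above the other 3 groups without overlap for Prdx2, Gpx1, Sod2, Cat, Prdx4 and, against the WT label and KO gastrocnemius, Sod3, whereas Sod1 and Gpx3 overlap in all 4 groups. For Gpx1 the gap is narrow (8.78 against 8.77 in KO gastrocnemius). How many of all genes separate in this way was not counted.

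*Prdx2*, a peroxiredoxin of the cytosol that is also abundant in red cells, had the smallest p of the 10 for the diaphragm label. Its signal was 10.23, 10.16 and 10.21 on the arrays labelled WT diaphragm and 11.15, 11.03 and 11.16 on the KO diaphragm arrays. The gastrocnemius signals were 10.18, 10.07 and 10.30 in WT and 10.34, 10.43 and 10.30 in KO. The KO diaphragm arrays all lay above the other 9, and the KO gastrocnemius arrays lay narrowly above WT. The rise for the diaphragm label was 0.91 (SE 0.0873, 1.89-fold, adjusted p = 3.64e-06), and KO diaphragm exceeded KO gastrocnemius by 0.75 (adjusted p = 1.8e-05). In gastrocnemius the difference was 0.18 (95% interval -0.01 to 0.36, adjusted p = 0.331). The changes differed between the labels by 0.74 (adjusted p = 0.000981).

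*Prdx2* and *Prdx1* each have 2 single-symbol probe sets, and the reference lists pseudogenes of both (*Prdx2-ps1*, *Prdx2-ps2* and *Prdx1-ps*), so that signal may be split or shared between near-identical copies and both values are uncertain. The dimmer *Prdx2* probe set averaged 7.37 in the arrays labelled WT diaphragm, 8.36 in KO diaphragm, 7.65 in WT and 7.82 in KO gastrocnemius, again with KO diaphragm above the other groups. The dimmer *Prdx1* probe set averaged 9.12, 9.21, 9.17 and 9.32 in the same order.

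*Gpx1*, the main glutathione peroxidase of the cytosol and also present in mitochondria, was 8.45, 8.06 and 8.37 on the arrays labelled WT diaphragm and 9.12, 9.19 and 8.78 on the KO diaphragm arrays. Signals in gastrocnemius were 8.61, 8.53 and 8.68 in WT and 8.68, 8.55 and 8.77 in KO. The arrays labelled WT diaphragm lay below all others and KO diaphragm narrowly above (8.78 against 8.77), while the gastrocnemius groups overlapped. The rise for the diaphragm label was 0.74 (SE 0.124, 1.67-fold, adjusted p = 0.0005), and the gastrocnemius difference was 0.06 (95% interval -0.20 to 0.33, adjusted p = 0.839). Without replicate 2 of the arrays labelled WT diaphragm, its lowest array, the rise was 0.62 (adjusted p = 0.0028). KO diaphragm exceeded KO gastrocnemius by less, 0.36 (adjusted p = 0.0418). That call did not hold in several alternatives, among them median centring (0.23, adjusted p = 0.166), the fit with only the 6 KO arrays (adjusted p = 0.0506) and the fit without KO diaphragm replicate 2 (0.28, adjusted p = 0.165). Between the arrays labelled WT diaphragm and WT gastrocnemius its difference was -0.31 (95% interval -0.58 to -0.05, adjusted p = 0.302).

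*Sod1* and *Prdx1*, the other cytosolic enzymes, were called in no comparison. *Sod1* lay between 10.13 and 10.33 on the arrays labelled WT diaphragm, between 10.21 and 10.35 in KO diaphragm, between 10.11 and 10.29 in WT and between 10.11 and 10.26 in KO gastrocnemius, and all 4 groups overlapped. Its differences were 0.05 for the diaphragm label (95% interval -0.15 to 0.24) and -0.03 in gastrocnemius (-0.23 to 0.16), and the sign of both turned with median centring. Between KO diaphragm and KO gastrocnemius it was 0.11 (-0.09 to 0.30, adjusted p = 0.423), with the sign turned by median centring. *Prdx1* was 9.48, 9.01 and 9.49 on the arrays labelled WT diaphragm and 9.45, 9.53 and 9.53 in KO diaphragm. On the gastrocnemius arrays it was 9.35, 9.63 and 9.39 in WT and 9.83, 9.67 and 9.53 in KO, so that the groups overlapped in both muscles. Its differences were 0.18 (95% interval -0.10 to 0.46, adjusted p = 0.328) and 0.22 (-0.06 to 0.50, adjusted p = 0.418), and without WT diaphragm replicate 2 the former dropped to 0.02. The KO muscles differed by -0.17 (-0.45 to 0.11, adjusted p = 0.372).

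*Prdx1* and *Sod1* were also the members whose promoters held the core of the antioxidant response element, the sequence through which the factor Nrf2 is known to act. The element was searched as TGACNNNGC on both strands of the 250 bases before the start of each gene, in RefSeq promoters of build GRCm38.p6 that were on hand for 9 of the 10 genes, *Sod3* being the one without an entry. It occurred in 2 of these 9 and in 10.2% of all 32851 promoters of that length. Both promoters are shown 5′ to 3′ on the strand of the gene, in lower case with the match in capitals, beside that of *Prdx2*, the cytosolic member with the smallest p, in which neither these letters nor the GC box GGGCGG were found.
Prdx1 (chr4:116685349-116685598, plus strand): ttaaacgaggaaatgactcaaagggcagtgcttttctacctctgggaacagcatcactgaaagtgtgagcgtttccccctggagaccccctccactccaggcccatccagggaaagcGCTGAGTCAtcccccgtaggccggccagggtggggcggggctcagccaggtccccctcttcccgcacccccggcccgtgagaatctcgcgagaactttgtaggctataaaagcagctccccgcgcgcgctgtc
Sod1 (chr16:90220512-90220761, plus strand): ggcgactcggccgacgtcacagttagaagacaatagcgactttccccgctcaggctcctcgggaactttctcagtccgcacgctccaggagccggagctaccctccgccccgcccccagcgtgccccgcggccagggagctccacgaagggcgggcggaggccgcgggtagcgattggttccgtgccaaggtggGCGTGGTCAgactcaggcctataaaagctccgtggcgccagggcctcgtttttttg
Prdx2 (chr8:84969372-84969621, plus strand): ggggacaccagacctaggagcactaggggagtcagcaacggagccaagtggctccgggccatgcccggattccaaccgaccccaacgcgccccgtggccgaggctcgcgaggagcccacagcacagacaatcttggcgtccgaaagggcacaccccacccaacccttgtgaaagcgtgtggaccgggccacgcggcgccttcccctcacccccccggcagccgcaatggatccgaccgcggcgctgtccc

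In both matches the element lies on the opposite strand, starting 133 bases before the start of *Prdx1* and 56 bases before that of *Sod1*. The GC box, known to bind Sp1, was found in 7 of the 9 promoters against 32.7% of all, in *Cat*, *Gpx3*, *Prdx1*, *Prdx3*, *Prdx4*, *Sod1* and *Sod2*. TATAAA was found in 3 of 9 (*Prdx1*, *Prdx3* and *Sod1*) against 12.4% of all. CCAAT was found in 5 of 9 (*Cat*, *Gpx3*, *Prdx4*, *Sod1* and *Sod2*) against 33.8%. These matches describe letters in one window and not sites of binding.

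In the mitochondrial matrix, where the respiratory chain makes superoxide, *Sod2* converts it to hydrogen peroxide and *Prdx3* reduces that peroxide. *Sod2* was 11.29, 11.13 and 11.31 on the arrays labelled WT diaphragm and 11.80, 11.62 and 11.91 on the KO diaphragm arrays. In gastrocnemius it was 11.12, 11.17 and 11.17 in WT and 11.21, 11.26 and 11.10 in KO. KO diaphragm lay above the other 9 arrays and the gastrocnemius genotypes overlapped. *Sod2* rose by 0.54 for the diaphragm label (SE 0.0951, 1.45-fold, adjusted p = 0.000711) and KO diaphragm exceeded KO gastrocnemius by 0.59 (adjusted p = 0.000303). The gastrocnemius difference was 0.03 (95% interval -0.17 to 0.24, adjusted p = 0.886). The changes differed by 0.50 (adjusted p = 0.0207), a call that was lost with median centring (0.37, adjusted p = 0.0867) and without KO diaphragm replicate 3 (0.44, adjusted p = 0.0527) or KO gastrocnemius replicate 3 (0.46, adjusted p = 0.0567).

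*Prdx3* was 10.81, 10.85 and 10.86 on the arrays labelled WT diaphragm and 11.39, 11.19 and 11.39 in KO diaphragm, and 10.89, 10.99 and 10.99 in WT and 11.24, 11.33 and 11.10 in KO gastrocnemius. Within each muscle label no KO array was as low as any WT array, and the KO muscles overlapped with each other. It rose by 0.48 for the diaphragm label (SE 0.0909, 1.40-fold, adjusted p = 0.00118). In gastrocnemius the difference was 0.27 (95% interval 0.07 to 0.46), with an adjusted p of 0.173 in limma and an exact permutation p of 0.1, the smallest that 3 arrays against 3 allow. The difference of the changes was 0.21 (95% interval -0.06 to 0.49, adjusted p = 0.316), and the difference between KO diaphragm and KO gastrocnemius was 0.10 (-0.10 to 0.29, adjusted p = 0.467), whose sign turned with median centring.

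*Cat*, the catalase of peroxisomes, where fatty acid oxidation yields hydrogen peroxide, was 9.59, 9.14 and 9.43 on the arrays labelled WT diaphragm and 9.96, 10.06 and 9.95 on the KO diaphragm arrays. In gastrocnemius it was 9.53, 9.60 and 9.34 in WT and 9.10, 9.31 and 9.09 in KO. KO diaphragm lay above and KO gastrocnemius below WT of the same label, with no overlap in either muscle. It rose by 0.60 for the diaphragm label (SE 0.117, 1.52-fold, adjusted p = 0.00143). In gastrocnemius the difference was -0.32 (95% interval -0.58 to -0.07, adjusted p = 0.196), with an exact permutation p of 0.1. The changes differed by 0.93 (SE 0.165, adjusted p = 0.00158), and KO diaphragm exceeded KO gastrocnemius by 0.82 (SE 0.117, adjusted p = 0.000108). Adipocytes and macrophages also express catalase, and the values of their markers are given beside it. In gastrocnemius all 10 macrophage markers had differences below 0 (median -0.31, none called), and 6 of 7 adipocyte markers did (median -0.43, none called). The mean of the macrophage list ran from 6.67 to 7.00 in WT and from 6.42 to 6.60 in KO gastrocnemius, and that of the adipocyte list from 7.65 to 8.21 and from 7.32 to 7.66. Their part in the *Cat* values was not tested. The *Cat* promoter, shown for the member that differed most between the muscles of KO mice, holds a GC box (capitals) 24 bases before the start, and neither TATAAA nor the antioxidant element was found in it.
Cat (chr2:103485154-103485403, minus strand): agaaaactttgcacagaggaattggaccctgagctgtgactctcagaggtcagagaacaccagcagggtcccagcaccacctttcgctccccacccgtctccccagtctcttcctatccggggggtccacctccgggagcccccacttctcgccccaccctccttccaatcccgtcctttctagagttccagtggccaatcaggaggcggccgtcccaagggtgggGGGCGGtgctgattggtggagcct

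*Prdx4*, the peroxiredoxin that takes up peroxide made during protein folding in the endoplasmic reticulum, had the largest difference of the 10 for the diaphragm label. It was 5.82, 5.68 and 5.47 on the arrays labelled WT diaphragm and 6.26, 6.86 and 6.92 on the KO diaphragm arrays. In gastrocnemius it was 6.05, 5.74 and 6.06 in WT and 6.13, 6.12 and 5.98 in KO. Its signal was low, with means of 5.66 for the WT diaphragm label and 5.95 and 6.08 in WT and KO gastrocnemius. These lie below the median gene at 6.10. KO diaphragm lay above the other 9 arrays, with replicate 1 well below the other KO diaphragm arrays. It rose by 1.02 for the diaphragm label (SE 0.158, 2.03-fold, adjusted p = 0.000236), and its gastrocnemius difference was 0.13 (95% interval -0.21 to 0.46, adjusted p = 0.727). The changes differed by 0.90 (adjusted p = 0.0137), and KO diaphragm exceeded KO gastrocnemius by 0.60 (adjusted p = 0.00962). Plasma cells, which secrete antibody, are rich in this enzyme. The mean of 8 B and plasma cell markers was 5.92, 7.70 and 7.26 on the KO diaphragm arrays, and at most 5.35 on the other 9 arrays. Both were lowest on replicate 1, whereas the list was highest on replicate 2 and *Prdx4* on replicate 3. The part of these cells in the *Prdx4* values was not tested, and in these bulk samples more cells of a type and more RNA per cell cannot be told apart.

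The secreted enzymes were *Sod3* and *Gpx3*. *Sod3* was 5.95, 5.94 and 5.99 on the arrays labelled WT diaphragm and 6.39, 6.24 and 6.24 in KO diaphragm. In gastrocnemius it was 6.32, 5.87 and 5.96 in WT and 5.71, 6.04 and 5.71 in KO. Its means of 5.96 for the WT diaphragm label and 6.05 and 5.82 in WT and KO gastrocnemius also lie below the median gene at 6.10. KO diaphragm lay above the WT label and above KO gastrocnemius, and the gastrocnemius genotypes overlapped. Its difference for the diaphragm label, 0.33 (95% interval 0.07 to 0.59), had an adjusted p of 0.0588, and of 0.0262 when only the arrays compared were fitted. In gastrocnemius it was -0.23 (-0.49 to 0.03, adjusted p = 0.37). KO diaphragm exceeded KO gastrocnemius by 0.47 (SE 0.122, adjusted p = 0.00949). The changes differed by 0.55 (adjusted p = 0.0437), a call lost in most alternatives, among them quantile normalization (0.42, adjusted p = 0.105), median centring (0.42, adjusted p = 0.087), the replicate block (adjusted p = 0.0574) and the fit without WT gastrocnemius replicate 1 (0.42, adjusted p = 0.0909), its highest array there. *Gpx3*, the glutathione peroxidase of plasma, ranged from 9.43 to 9.78 on the arrays labelled WT diaphragm, from 9.27 to 9.92 in KO diaphragm, from 9.34 to 9.79 in WT and from 9.51 to 9.67 in KO gastrocnemius. All 4 groups overlapped, and both genotype differences were 0.02, with 95% intervals of -0.31 to 0.35 and -0.31 to 0.35. Their signs turned with median centring for the diaphragm label and with quantile normalization for gastrocnemius. The difference between the KO muscles was 0.03 (-0.30 to 0.36, adjusted p = 0.911), and its sign too turned with median centring.

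**Figure D3:**
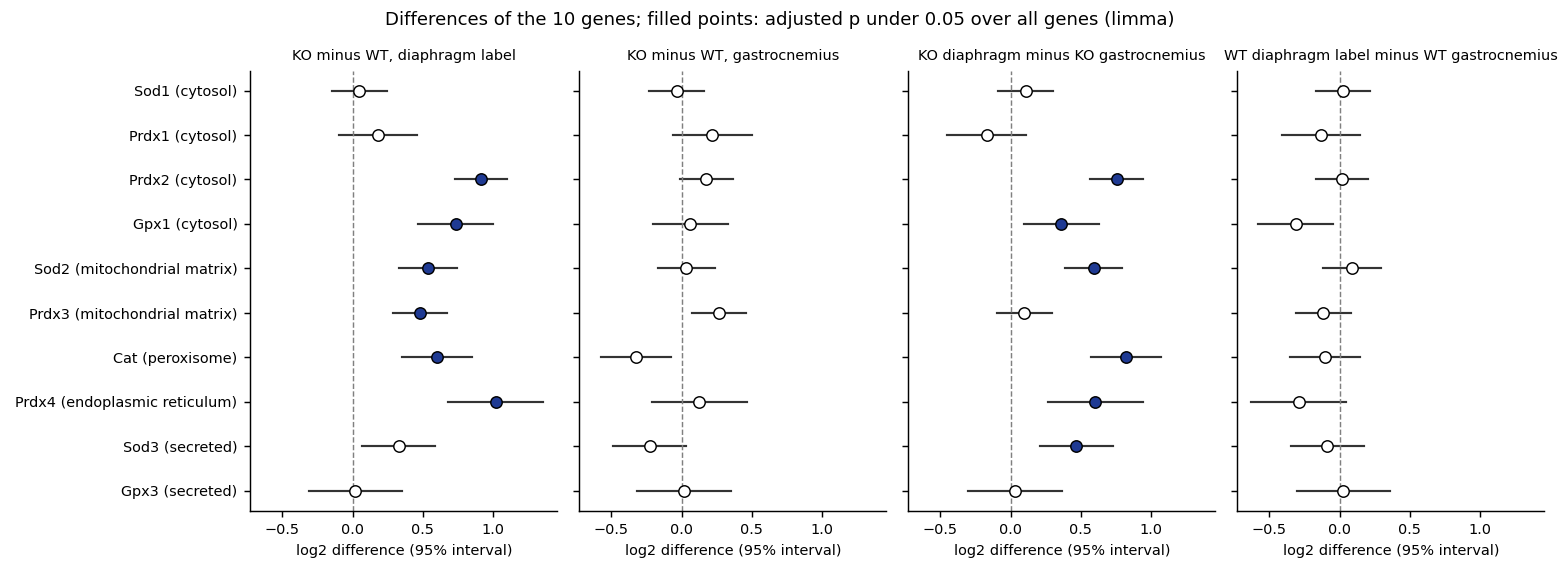
Log2 difference of each enzyme (points) with its 95% interval (lines) in 4 comparisons, with filled points for an adjusted p under 0.05 over all genes. Filled points stand at 6 enzymes for the diaphragm label and at 6 for KO diaphragm against KO gastrocnemius, and at none in gastrocnemius or between the WT labels.

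By compartment, called members for the diaphragm label were found in the cytosol (2 of 4), the mitochondrial matrix (2 of 2), the peroxisome (1 of 1) and the endoplasmic reticulum (1 of 1), and neither of the 2 secreted enzymes was called (*Sod3* at an unadjusted p of 0.0173). Between the KO muscles 2 of 4, 1 of 2, 1 of 1, 1 of 1 and, with *Sod3*, 1 of 2 secreted enzymes were called. Of all genes, 16.3% were called higher and 11.2% lower for the diaphragm label, and 17.7% and 11.2% between the KO muscles. The other cell types of the muscle differed as well. For the diaphragm label, 9 of 9 slow and oxidative fiber genes rose (median 1.41), 7 of 8 glycolytic fiber genes fell (median -2.14), 9 of 10 macrophage, 6 of 8 B and plasma cell, 6 of 8 endothelial, 6 of 8 fibroblast and 4 of 7 adipocyte genes rose, and 1 adipocyte gene fell. Between the KO muscles 8 of 9 slow and oxidative, 10 of 10 macrophage, 8 of 8 B and plasma cell, 8 of 8 endothelial, 6 of 8 fibroblast and 4 of 7 adipocyte genes were higher in diaphragm, and 7 of 8 glycolytic and 1 adipocyte gene lower. Of 6 smooth muscle genes 1 rose and 4 fell for the diaphragm label (median -0.61). Between the KO muscles 1 of these 6 was higher and none lower in diaphragm (median -0.02), while 2 of the 6 were higher in the arrays labelled WT diaphragm than in WT gastrocnemius (median 0.53), so that in this list those arrays differ from gastrocnemius. For the diaphragm label, of 5 erythroid genes *Alas2* rose by 1.26 and 1 fell. The mean of the erythroid list, listed beside *Prdx2* as an enzyme of red cells, ran from 5.27 to 5.60 in KO diaphragm and from 5.17 to 5.34 on the other 9 arrays, so that these ranges overlapped. In gastrocnemius none of the genes of these lists was called. The mean of the slow and oxidative list ran from 11.45 to 11.64 in KO diaphragm and from 9.70 to 10.62 on the other 9 arrays. The part of fiber type and of cell makeup in the enzyme values was not tested.

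The genes whose signal ran most like that of each enzyme over the 12 arrays are given by Pearson's r, as a description in which the difference between KO diaphragm and the rest weighs heavily. *Sod2* ran most like *Etfdh* (r = 0.988), *Hadhb* (r = 0.988) and *Cpt2* (r = 0.987), which act in mitochondrial fatty acid oxidation. *Prdx2* ran most like *Mccc1* (r = 0.994), *Casq2* (r = 0.988) and *Fam3c* (r = 0.987), of which *Casq2* is the calcium buffer of slow fibers and a gene of the slow and oxidative list. *Cat* ran most like *Dgat2* (r = 0.973), an enzyme of triglyceride synthesis, *Il4ra* (r = 0.958) and *Cerk* (r = 0.956). *Prdx4* ran most like *Casp8* (r = 0.969), *B2m* (r = 0.965) and *Golim4* (r = 0.962). *Prdx3* ran most like *Pkd2l2* (r = 0.955), *Hibch* (r = 0.954) and *Uxt* (r = 0.954). *Gpx1* ran most like *Tspo* (r = 0.919), *Gpd1l* (r = 0.917) and *Apoe* (r = 0.914), and *Sod3* most like *Nemp2* (r = 0.956), *Hey1* (r = 0.935) and *Itpr3* (r = 0.929). The enzymes called in no comparison had lower values, with 0.853 for *Sod1* (*Sh3bp4*), 0.896 for *Prdx1* (*ND3*) and 0.889 for *Gpx3* (*Plekhd1os*). Among the enzymes themselves, *Prdx2* and *Sod2* ran most alike (r = 0.947 over the 12 arrays), and *Prdx1* and *Sod1* ran opposite (r = -0.536).

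Removal enzymes depend on partners, and the lists of these were described by counts beside the medians of all genes, -0.04 for the diaphragm label, -0.01 in gastrocnemius and 0.02 between the KO muscles. The shares of all genes called, given above for each comparison, are 16.3% higher and 11.2% lower for the diaphragm label and 17.7% and 11.2% between the KO muscles. A list of 15 genes around the regeneration of peroxiredoxins and thioredoxins also held sestrins, glutaredoxins and *Txnip*, whose part in it was not tested. Of the 15, 4 rose and 2 fell for the diaphragm label (median -0.08), of which the 2 lower ones are near the share of all genes. None was called in gastrocnemius (median 0.12), and 5 were higher and 1 lower between the KO muscles (median 0.06). Differences ran from -1.06 to 1.40 for the diaphragm label and from -1.35 to 1.05 between the KO muscles. The genes named next are those of smallest p by genotype, not those at the low ends. The sestrins *Sesn1* and *Sesn3* rose by 1.40 (SE 0.186, adjusted p = 6.52e-05) and 1.15 (SE 0.112, adjusted p = 4.51e-06), and between the KO muscles they were higher in diaphragm by 1.05 and 0.85 (adjusted p = 0.000633 and 5.47e-05). The cytosolic thioredoxin *Txn1* rose by 0.44 (adjusted p = 0.00152) and was higher in KO diaphragm than KO gastrocnemius by 0.60 (adjusted p = 0.000117). Its reductase *Txnrd1* averaged 9.28 in the arrays labelled WT diaphragm, 8.68 in KO diaphragm, and 8.84 and 8.73 in WT and KO gastrocnemius. The difference of -0.60 for the diaphragm label (adjusted p = 0.0029) thus rests on the arrays labelled WT diaphragm, and that between the KO muscles was -0.05 (adjusted p = 0.798). Of 6 further peroxide-removing enzymes, the endoplasmic reticulum enzyme *Gpx8* rose by 1.10 and the lipid peroxide reductase *Gpx4* by 0.44, and *Gpx7* fell by 0.47. *Gpx5* was called lower too, but at mean signals of 3.34 and 3.01, far below the median gene at 6.10, it was not shown to lie above background. Between the KO muscles *Gpx8* was higher by 1.15 (adjusted p = 4.54e-05), *Gpx7* differed by -0.53 (adjusted p = 0.0051) and *Gpx4* by 0.13 (adjusted p = 0.388). None of these 6 was called in gastrocnemius, and *Prdx5* and *Prdx6* have no single-symbol probe set and were not analysed here.

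NADPH supply was the list with called genes in gastrocnemius as well. Of 9 genes 7 rose and 1 fell for the diaphragm label (median 0.76), 2 rose in gastrocnemius (median 0.06), and 6 were higher and 1 lower between the KO muscles (median 0.72). *Nnt*, the transhydrogenase that makes NADPH in the mitochondrial matrix, averaged 8.37 ± 0.348 (SD, n = 3) in the arrays labelled WT diaphragm, 11.82 ± 0.127 in KO diaphragm, and 8.29 ± 0.181 and 10.20 ± 0.189 in gastrocnemius of WT and KO mice. It rose by 3.45 (adjusted p = 2.57e-09) and by 1.91 (adjusted p = 6.82e-05), and the KO arrays lay above the WT arrays in both muscles, and KO diaphragm exceeded KO gastrocnemius by 1.61 (adjusted p = 4.01e-06). The methods give the WT mice as C57BL/6J from Harlan Laboratories. The C57BL/6J strain is known to carry a deletion within *Nnt*, but whether the supplier's animals carried it was not tested. Whether strain background plays a part in the enzyme values was not tested either. *Me3*, a mitochondrial malic enzyme, rose by 0.73 in gastrocnemius (SE 0.106, adjusted p = 0.00732) and by 0.44 for the diaphragm label (adjusted p = 0.00601), and between the KO muscles it differed by -0.03 (adjusted p = 0.885). The isocitrate dehydrogenases *Idh1* (cytosol and peroxisome) and *Idh2* (matrix) rose by 1.31 (adjusted p = 2.19e-07) and 1.68 (adjusted p = 1.68e-06) for the diaphragm label, and their gastrocnemius differences were 0.06 (adjusted p = 0.78) and 0.13 (adjusted p = 0.708). KO diaphragm exceeded KO gastrocnemius for both, by 1.15 (adjusted p = 6.95e-07) and 1.51 (adjusted p = 4.42e-06). *Aldh1l1*, a folate enzyme that yields NADPH in the cytosol, rose by 0.76 for the diaphragm label (adjusted p = 3.82e-05) and had an adjusted p of 0.988 in gastrocnemius, and the KO muscles differed by 0.72 (adjusted p = 5.67e-05).

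Of 5 genes listed for metal delivery to the dismutases, 2 rose for the diaphragm label and none was called in gastrocnemius. *Atox1*, a copper chaperone, rose by 0.50 (adjusted p = 0.0139) and *Slc25a39*, a mitochondrial carrier, by 0.33 (adjusted p = 0.0374). Whether *Slc25a39* serves metal delivery was not tested. In KO diaphragm *Slc25a39* exceeded its KO gastrocnemius level by 0.56 (adjusted p = 0.00136) and *Atox1* differed by 0.02 (adjusted p = 0.933). Of 11 genes that make superoxide or peroxide, 6 rose for the diaphragm label (median 0.50) none in gastrocnemius (median -0.13), and 9 were higher and 1 lower between the KO muscles (median 0.78). *Cybb* and *Cyba*, the membrane subunits of the phagocyte NADPH oxidase, rose by 2.79 (SE 0.203, adjusted p = 2.88e-07) and 1.19 (SE 0.144, adjusted p = 2.96e-05). *Maob*, a monoamine oxidase of the outer mitochondrial membrane, rose by 1.64 (adjusted p = 4.21e-07) and *Ero1a*, which passes electrons from folding proteins to oxygen, by 0.61 (adjusted p = 0.000636). *Cybb*, *Cyba*, *Maob* and *Ero1a* exceeded KO gastrocnemius in KO diaphragm by 2.74, 1.18, 1.48 and 0.78 (adjusted p = 3.24e-07, 2.72e-05, 1.01e-06 and 7.56e-05). The mean of the 10 macrophage markers ran from 7.52 to 7.91 in KO diaphragm and from 6.39 to 7.00 on the other 9 arrays, and the part of macrophages in *Cybb* and *Cyba* was not tested.

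Lists for the compartments of *Cat* and *Prdx4* were counted in the same way. Of 15 genes for peroxisome formation and membrane, 3 rose (*Pex3* by 0.48, *Pxmp4* by 0.32 and *Abcd3* by 0.29) and *Pex26* fell by 0.34 for the diaphragm label, with a median of 0.18, and both counts are near the shares of all genes called. None was called in gastrocnemius (median 0.04), and 6 were higher and none lower between the KO muscles (median 0.16), where *Pex3*, *Pxmp4* and *Abcd3* were higher by 0.41, 0.35 and 0.29 and *Pex26* differed by -0.05 (adjusted p = 0.714). Of 10 genes for oxidative folding in the endoplasmic reticulum, 7 rose and 1 fell for the diaphragm label (median 0.54), and none was called in gastrocnemius (median 0.06). Of the 10, 7 were higher and 1 lower between the KO muscles (median 0.88). The disulfide isomerases *Pdia4*, *Pdia3* and *Pdia6* rose by 1.53 (adjusted p = 0.000179), 0.99 (adjusted p = 0.000173) and 0.97 (adjusted p = 0.00019), and the chaperone *Hsp90b1* by 1.12 (adjusted p = 0.000132). *Pdia4*, *Pdia3*, *Pdia6* and *Hsp90b1* exceeded their KO gastrocnemius levels in KO diaphragm by 1.77, 1.44, 0.91 and 1.39 (adjusted p = 4.74e-05, 5.89e-06, 0.000277 and 1.83e-05). The mean of this list was 9.32, 9.73 and 9.35 on the KO diaphragm arrays and between 8.66 and 9.07 on the other 9, and its part in the *Prdx4* values was not tested.

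**Figure D4:**
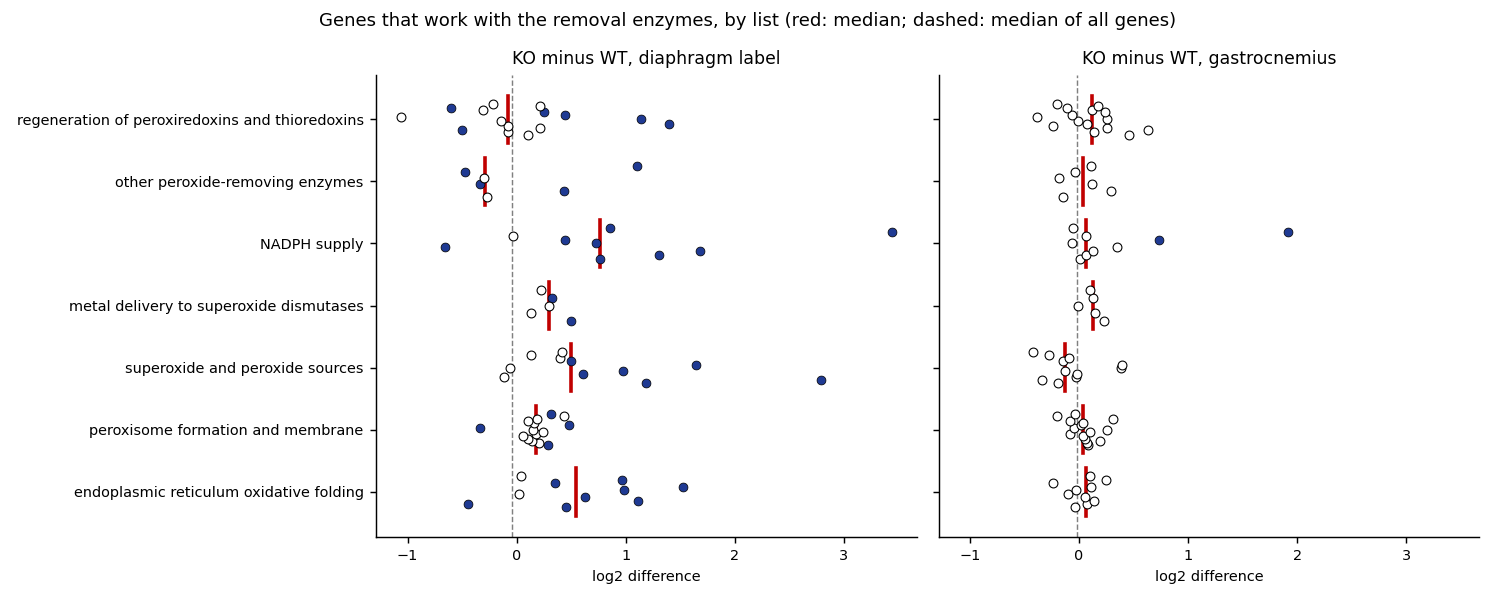
Log2 difference between KO and WT of each gene (points) of 7 lists of partner genes, for the diaphragm label and for gastrocnemius, with filled points for an adjusted p under 0.05, red bars for list medians and dashed lines for the median of all genes. In gastrocnemius the 2 filled points belong to Nnt (1.91) and Me3 (0.73).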

How the data were processed

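Total RNA of diaphragm and gastrocnemius from 12 mouse samples had been hybridised to Gene 1.0 ST arrays, and the authors deposited log2 RMA signals (RMA sketch, Affymetrix Expression Console, version not given in the sources used here), background corrected and normalized between arrays. Of 35556 probe sets, 21789 carry 1 symbol, 1621 several and 12146 none in the annotation, and the brightest single-symbol probe set stood for each of 19938 genes. Groups followed the sample labels. Differences were fitted in R 4.3.3 with limma 3.58.1 (lmFit, eBayes) in 1 model of 4 group means without covariates, with Benjamini-Hochberg adjustment over all genes and a threshold of 0.05, and single values by two-sided exact permutation. The script was tested on simulated data. The titles name the 3 arrays of a group as biological replicates. Array number limits the precision (median residual SD 0.138). No pair of arrays was identical.

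The 10 enzymes, the gene lists and the tests were chosen with earlier results of these data known. Named genes were the 10 enzymes, *Cox6a2*, *Nnt*, up to 4 called genes of smallest p per list and the 3 genes of highest correlation per enzyme, and *Me3*, *Alas2* and 3 marker genes were named after their values were seen. The samples were not treated as paired by replicate number. Correlations of deviations at equal replicate numbers ran from -0.07 to 0.148, the highest for replicate 2 of the WT labels. They were not set against unequal numbers, so they cannot show whether both muscles came from the same mice. Alternatives covered scaling, filters, probe set choice, replicate block, the methods' t-test and each array left out, and the dimmer probe set of *Prdx1* and *Prdx2* was added after seeing the data.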

Additional observations from a re-analysis of the deposited data

Results flagged for a closer look

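The KO minus WT change differed between the diaphragm label and gastrocnemius, by limma's test of the interaction, for 6 of the 10 enzymes. By the same test 8.76% of all genes were called higher and 6.07% lower. The change for the diaphragm label was the higher one by 0.74 for *Prdx2*, 0.67 for *Gpx1*, 0.50 for *Sod2*, 0.93 for *Cat*, 0.90 for *Prdx4* and 0.55 for *Sod3*, with adjusted p-values of 0.000981, 0.0182, 0.0207, 0.00158, 0.0137 and 0.0437. Each of these values rests on the 3 arrays labelled WT diaphragm, which carry hindlimb position genes.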

How the results depend on the processing

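Over 23 settings other than the main one, 801 of the recomputed differences of single enzymes kept direction and side of the threshold, 39 lost a call, 5 gained one and 17 turned sign. Many of the 801 were bound to keep direction. The replicate block and leaving out an array of another group, for instance, leave the difference itself as it was. The count is thus not a measure of robustness. With the methods' t-test 3 enzymes passed the adjusted threshold for the diaphragm label, 3 for KO diaphragm against KO gastrocnemius and 3 for the difference of the changes, against 6 each. Of all 19938 genes, 1989 passed it for the diaphragm label and 3478 between the KO muscles. The 3 enzymes for the diaphragm label were *Prdx2*, *Prdx3* and *Sod3* (adjusted p = 0.0412), the last not called in limma. *Sod2*, *Cat*, *Prdx4* and *Gpx1* lost their call there (adjusted p = 0.0554, 0.071, 0.0749 and 0.0769). In both other comparisons *Gpx1*, *Prdx4* and *Sod3* lost theirs. In gastrocnemius and between the WT labels none was called in any setting. With each array left out, 6 to 7, 5 to 6 and 4 to 6 were called in those 3 comparisons. With the replicate block 6, 5 and 5 were called, *Gpx1* between the KO muscles (0.36, adjusted p = 0.0507) and *Sod3* for the difference of the changes (0.55, adjusted p = 0.0574) being lost. Calls over all genes were not counted for the fits with an array left out or with the block. The sign turned only for differences that were not called. With median centring *Gpx3* came to -0.0535 and *Sod1* to -0.0269 for the diaphragm label, *Sod1* to 0.023 in gastrocnemius, and *Prdx3* to -0.0292, *Gpx3* to -0.0968 and *Sod1* to -0.0205 between the KO muscles. With quantile normalization *Gpx3* came to -0.0288 in gastrocnemius. With each array left out, *Gpx3* ran from -0.142 to 0.185 for the diaphragm label and from -0.0848 to 0.139 in gastrocnemius and from -0.132 to 0.195 between the KO muscles, *Sod1* from -0.0106 to 0.0897 and from -0.0891 to 0.000675, and *Sod2* in gastrocnemius from -0.00116 to 0.0803. The causes were not tested.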
